A study of Mus musculus with 8 samples.

Results

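Glycolysis, lactate handling and the pentose phosphate pathway were followed through 38 mouse genes for glucose entry, the glycolytic enzymes, lactate production and export, the kinases that gate pyruvate, the bifunctional PFKFB enzymes, the pentose phosphate enzymes and a pair of glycogen enzymes. A gene was a member if a non-control probe of the array carried one of its transcript accessions. All 38 genes had a probe, out of 20145 genes with a symbol on the array, and 37 of them could be tested. Pgam2, the muscle form of phosphoglycerate mutase, has 1 probe that was well above background on 1 of 8 arrays, and it was not tested. The other 37 genes were well above background on all 8 arrays.

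RNA of whole ovary from mice of 33 weeks was hybridised to one-colour Agilent arrays. Wildtype ovaries took 3 of them and ovarian neoplasias 5. The neoplasia mice carried cre at one allele of Pgr, the gene of the progesterone receptor, together with an LsL allele, in which a stop cassette between loxP sites blocks expression until Cre removes it. The genotype is written as Pgrcre/+PgrBLsL/+ in the series' design and as Pgrcre/+mPgrLsL/+ in the sample labels, and only the first form names isoform B of the receptor. Expression from the LsL allele is limited to cells in which the Pgr locus has been active, and their descendants. Both groups were cycling mice of the same age on normal chow, and the labels give no stage of the cycle. The comparison asks how the RNA profile of these neoplasias differs from that of the wildtype ovary. Whether the arrays of a group come from different animals is not in the labels, and p-values therefore reflect only the spread among these samples, which may be technical.

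Glycolysis splits glucose into pyruvate in the cytosol, spending ATP in its first steps and regaining it in the later ones. Pyruvate is either reduced to lactate by lactate dehydrogenase and exported by monocarboxylate transporters, or oxidised in mitochondria by pyruvate dehydrogenase, which the PDK kinases switch off. The pentose phosphate pathway branches off at glucose 6-phosphate to make NADPH and ribose, and in the ovary granulosa cells are known to pass glycolytic pyruvate and lactate on to the oocyte, which uses glucose poorly.

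Members of each stage from glucose entry to lactate were higher in the neoplasia, and each of the 3 lower genes has a relative at the same step that was higher. Of 37 tested members, 13 were higher and 3 were lower at an adjusted p under 0.05 (limma with Benjamini-Hochberg adjustment over 25170 features), and 21 were not called. The higher ones were Slc2a1, Hk3, Gpi1, Pfkl, Aldoa, Tpi1, Gapdh, Pgk1, Pkm, Ldha, Pdk4, Pfkfb3 and Taldo1, and the lower ones were Slc2a4, Pfkm and Pdk2. These counts are 35.1% and 8.11% of the members, against 16.8% of all tested features called higher and 13.5% called lower (30.3% in either direction). The median member differed by 0.95 on the log2 scale and the median feature by 0.13. All neoplasia arrays lay above all wildtype arrays for 17 members and below them for 3, against 22.9% and 16.1% of all features. Every tested member was well above background on all 8 arrays, so the fit was repeated with only such features. It called 40.5% of members and 20.8% of features higher, and 8.11% and 9.93% lower.

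The counts depended on how the arrays were put on one scale. The split was 13 higher and 3 lower after scaling on the 75th percentile and 7 and 5 after quantile normalization. After quantile normalization the member shares were close to those of all features, at 18.9% against 15.6% higher and 13.5% against 15.2% lower. Scaling on the spike-in controls gave 2 and 3, or 5.41% against 2.93% of features higher and 8.11% against 15.9% lower. The spike-in signal on which this scaling rests was 8.89 on neoplasia 1, on the log2 scale. It was 10.18 to 10.76 on neoplasia 2 to 5 and 10.04 to 10.14 on the wildtype arrays. The part of the low signal of neoplasia 1 in the calls lost with spike-in scaling was not tested. The values as the authors deposited them, with no scaling between arrays, gave 9 and 4, or 24.3% against 6.05% higher and 10.8% against 24.4% lower. Quantile normalization ended the calls of Slc2a1, Gpi1, Aldoa, Tpi1, Gapdh, Ldha and Taldo1, and added Slc16a1 as higher and Pfkfb4 and Tkt as lower. Spike-in scaling ended the calls of all higher members but Pkm and Pdk4. The authors' values ended those of Slc2a1, Hk3, Aldoa and Tpi1, and added Pfkfb4 as lower. The median feature moved to 0.03, -0.46 and -0.34 in these alternatives. The median member lay 0.82 above the median feature as reported and 0.41 above it after quantile normalization, and scaling by one number per array cannot alter this gap. Slide position moved with the groups, since row 1 of the slide held neoplasia 1 to 4 and row 2 held neoplasia 5 and the wildtype arrays. A fit with the row as a block compares neoplasia 5 with the wildtype arrays, and in it 4 members were higher and 0 lower (limma, against 2.92% and 3.21% of features; 21 and 2 at an unadjusted p under 0.05). The 4 were Slc2a1, Hk3, Pfkp and Slc16a3. Within row 2 alone, which holds 1 neoplasia array, the median member difference was 1.41 and the median feature difference 0.04. Without wildtype 1, 2 or 3 the higher count fell to 3, 5 and 7, and the lower count to 1, 1 and 2. The shares of all features fell too, to 5.15%, 6.03% and 7.57% higher, against 8.11%, 13.5% and 18.9% of members, and to 6.09%, 6.72% and 8.43% lower, against 2.70%, 2.70% and 5.41%.

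**Figure D1:**
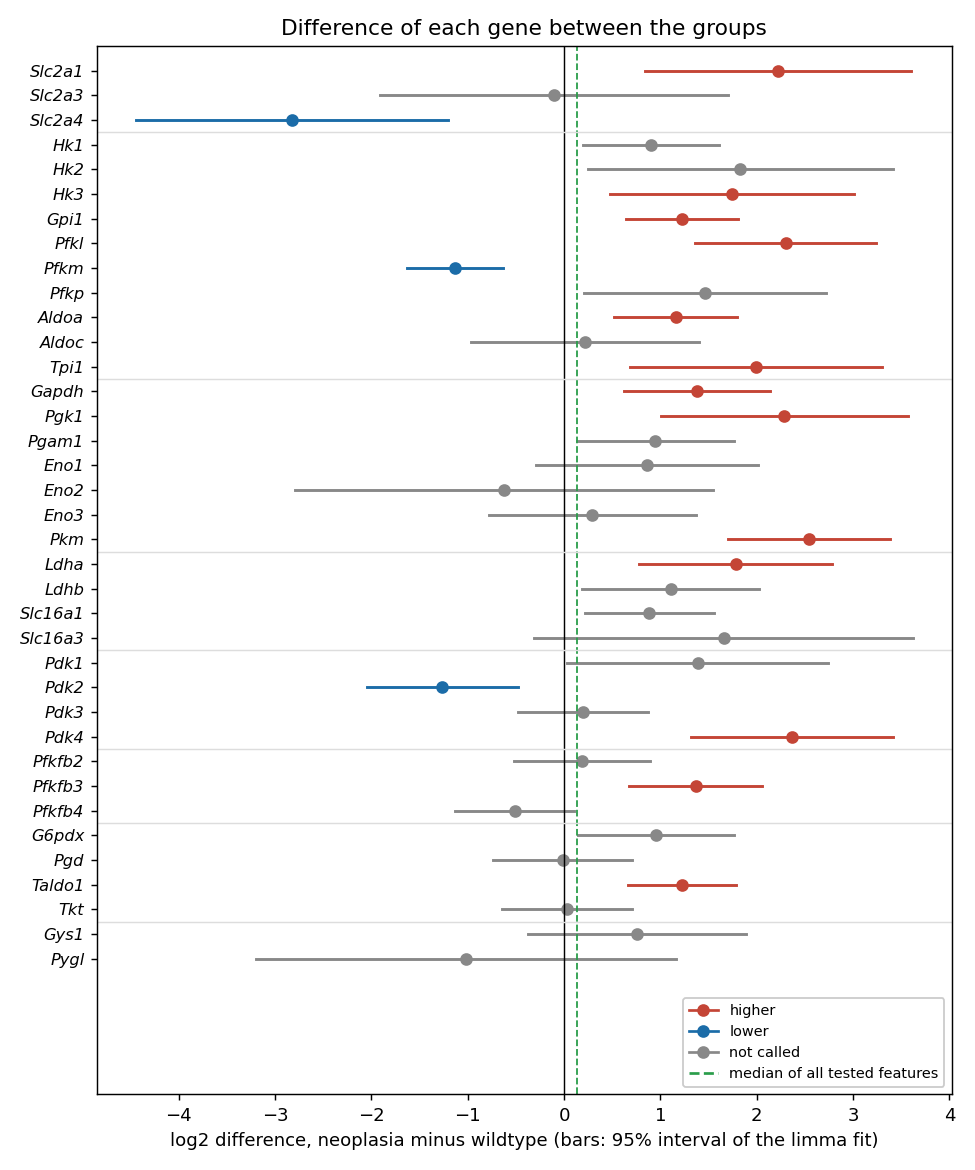
Log2 difference of each tested gene, neoplasia minus wildtype, with the 95% interval of the limma fit as a bar; red genes were called higher, blue genes lower, grey genes not called, and the dashed line marks the median of all tested features at 0.13. The 3 blue genes, Slc2a4, Pfkm and Pdk2, lie at -2.82, -1.13 and -1.26, and the 13 red genes lie between 1.16 and 2.54.

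Values are log2 processed intensity relative to the 75th percentile of the same array, so that a probe at 0 is as bright as that percentile. They can be compared between arrays for one gene, and not between genes, since probes differ in brightness. The samples are pieces of whole tissue, in which fewer cells of a type and less RNA per cell cannot be told apart. Erythrocyte markers were higher in the neoplasia for 6 of 6 tested genes, with a summed linear signal of 9.68 to 28.8 times the 75th percentile in wildtype and 402 to 1923 times in neoplasia. Macrophage markers were higher for 7 of 7, from 30.6 to 36.5 in wildtype to 90.9 to 179 in neoplasia. Granulosa markers were lower for 5 of 7, luteal markers for 6 of 6 and oocyte markers for 7 of 7, with oocyte sums of 25.8 to 33.4 in wildtype and 0.252 to 0.504 in neoplasia. Fshr, Amh and Cyp19a1 were well above background on 0 of 5 neoplasia arrays, whereas Foxl2, another granulosa marker, was at 4.88 to 5.13 in wildtype and at 5.20 to 5.65 in neoplasia. Epithelial markers Krt8 and Krt18 were higher and Epcam and Cdh1 lower, with summed signals of 12.2 to 67.2 and 174 to 765. These shifts move with the groups, and their part in the differences of the members was not tested.

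The promoters of several members hold the letters ACGTG, the core to which the hypoxia-inducible factor dimers and, within CACGTG, the Myc and ChREBP families are known to bind. In the 250 bases before the transcription start, taken from RefSeq with the GRCm38.p6 build, 36 of 38 members have a promoter in the table, and they have 53 promoters in all. The letters ACGTG were found on either strand in 20 of 53 member promoters (37.7%) and in 16.6% of 32851 promoters of the whole table. GCGTG, the other form of the hypoxia core, was found in 54.7% and 28.2%, and either form in 77.4% and 38.6%. Member promoters are also richer in G and C, with a mean of 59.2% against 53.2%, and the matches were not adjusted for this. Among members called higher, 9 of 18 promoters held ACGTG, against 3 of 6 for those called lower and 8 of 28 for those not called. GCGTG ran the other way, in 7 of 18, 2 of 6 and 20 of 28, and either form was in 14 of 18, 4 of 6 and 23 of 28. Some genes have several promoters, and the 6 promoters of lower members belong to 2 genes. By gene, ACGTG was in 7 of 13 higher, 2 of 2 lower and 7 of 20 uncalled members. Either form was in 11 of 13, 2 of 2 and 18 of 20. GGGCGG, a GC-rich hexamer searched for comparison, was also more frequent in member promoters, at 50.9% against 32.7% of all. The hexamer CACGTG, whose letters contain ACGTG, was in 6 of 53 member promoters (11.3%) and 6.02% of all. The Slc2a1, Pgk1 and Ldha promoters, with 1, 2 and 3 sites, are shown as examples that hold sites, from genes that rose. Higher genes without the letters are not shown. The Pdk2 promoter is shown because it holds a site and the gene fell. For Ldha and Pdk2, with 2 promoters each, the promoter with ACGTG is shown, and the other holds none. Capitals mark ACGTG or its reverse complement, and a run of CACGTG reads the same on both strands. Each sequence is printed 5′ to 3′ on the strand of the gene and ends at the base before the start.
Slc2a1 promoter, chr4:119108495-119108744, plus strand: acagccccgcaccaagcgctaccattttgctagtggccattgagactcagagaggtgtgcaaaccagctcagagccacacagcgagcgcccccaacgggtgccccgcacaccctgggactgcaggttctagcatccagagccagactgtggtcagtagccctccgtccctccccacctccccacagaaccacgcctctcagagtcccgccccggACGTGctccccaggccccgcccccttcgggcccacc
Pgk1 promoter, chrX:106186850-106187099, plus strand: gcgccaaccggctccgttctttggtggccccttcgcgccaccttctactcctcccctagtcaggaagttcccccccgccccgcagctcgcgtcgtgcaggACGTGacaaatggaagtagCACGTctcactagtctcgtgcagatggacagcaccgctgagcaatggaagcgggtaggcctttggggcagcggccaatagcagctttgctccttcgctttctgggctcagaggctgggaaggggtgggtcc
Ldha promoter, chr7:46845554-46845803, plus strand: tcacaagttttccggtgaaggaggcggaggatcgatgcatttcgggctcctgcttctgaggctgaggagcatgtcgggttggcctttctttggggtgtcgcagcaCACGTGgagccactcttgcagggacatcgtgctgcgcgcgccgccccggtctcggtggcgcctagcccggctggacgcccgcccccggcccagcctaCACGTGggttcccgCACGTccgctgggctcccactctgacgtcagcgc
Pdk2 promoter, chr11:95041372-95041621, minus strand: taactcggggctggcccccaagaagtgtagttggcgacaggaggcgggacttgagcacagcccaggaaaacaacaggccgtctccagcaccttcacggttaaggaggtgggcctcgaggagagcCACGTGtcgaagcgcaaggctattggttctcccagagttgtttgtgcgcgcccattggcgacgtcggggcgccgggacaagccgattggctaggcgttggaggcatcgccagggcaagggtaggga
The capital runs begin 36 bases before the start in Slc2a1, 150 and 131 in Pgk1, 145, 48 and 34 in Ldha, and 126 in Pdk2. A match of letters is a description of the window, and binding was not measured here.

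Glucose entry showed one transporter higher and another lower. Slc2a1 encodes GLUT1, the transporter of basal glucose uptake in many tissues. It read 1.46, 1.87 and 1.24 on wildtype 1 to 3 and 4.13, 3.09, 2.58, 3.41 and 5.51 on neoplasia 1 to 5. All neoplasia arrays lay above the wildtype arrays, with neoplasia 5 highest and neoplasia 3 lowest. The difference was 2.22 ± 0.60 (SE), or 4.66-fold (limma adjusted p = 0.0281). Slc2a4 encodes GLUT4, the insulin-responsive transporter of muscle and fat. It read 0.01, 1.11 and -1.52 in wildtype and -4.26, -3.41, -3.07, -2.43 and -1.62 in neoplasia. The groups did not overlap, although wildtype 3 and neoplasia 5 differed little. Slc2a4 fell by 2.82 ± 0.71 (SE), to a level 7.08-fold lower (limma adjusted p = 0.0214). Beside it, fat-cell markers varied among the wildtype arrays, with summed signals of 46.6, 79.8 and 2.16, in the same order as Slc2a4. In neoplasia 1 to 5 these sums were 147, 4.94, 23.9, 17.0 and 123. Fabp4, which macrophages also express, was well above background on 5 of 5 neoplasia arrays, Plin1 on 4, Adipoq, Cfd and Cidec on 1 each, and Lep on 0. The part of fat tissue in the Slc2a4 difference was not tested. Skeletal muscle markers, the other textbook source of GLUT4, had summed signals of 0.752 to 1.54 in wildtype and 0.993 to 8.95 in neoplasia.

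Slc2a3 encodes GLUT3, a high-affinity transporter known from neurons, and was not called. It read -0.28, 0.98 and -0.55 in wildtype and -0.57, -0.99, -0.80, -0.34 and 2.45 in neoplasia, with a difference of -0.10 ± 0.79 (SE, limma adjusted p = 0.931). Neoplasia 5 stood apart from the other 4. Without wildtype 1, 2 or 3 or neoplasia 1, Slc2a1 was no longer called (adjusted p up to 0.0958), and Slc2a4 was not called without wildtype 1 or 2 (adjusted p up to 0.0847). Slc2a4 was also not called with the row as a block or within row 2, where its difference was smallest, at -1.48.

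The steps from glucose to the triose phosphates had 5 members higher, 1 lower and 4 not called, of 10. Phosphofructokinase, the committed step, changed in opposite directions by isoform. Pfkl, the liver-type subunit, read 1.1, 1.46 and 1.13 in wildtype and 3.93, 2.67, 2.95, 4.50 and 3.60 in neoplasia. Every neoplasia array exceeded every wildtype array, with neoplasia 4 highest. Its difference was 2.30 ± 0.41 (SE), or 4.92-fold (limma adjusted p = 0.00587). Pfkm, the muscle-type subunit, read 2.51, 2.68 and 2.74 in wildtype and 1.35, 2.0, 1.5, 1.22 and 1.49 in neoplasia. It fell by 1.13 ± 0.22 (SE), 2.19-fold lower, on every neoplasia array (limma adjusted p = 0.00786). Both calls remained without any single array, and Pfkl was not called with spike-in scaling, at 1.71 (adjusted p = 0.0595). Pfkp, the platelet-type subunit, read 0.11 to 0.29 in wildtype and 0.46 to 3.05 in neoplasia. Its groups did not overlap, and its difference of 1.46 ± 0.55 (SE) was not called (adjusted p = 0.0742). A second probe of Pfkp differed by 0.91 and was called when probes were tested singly (adjusted p = 0.0400 over 34195 probes, of which 15.6% were called higher).

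Of the hexokinases, which trap glucose in the cell as glucose 6-phosphate, Hk3 was called. This form, known from myeloid cells, read -1.03, -1.57 and -1.90 in wildtype and -0.82, 0.83, -0.25, -0.24 and 1.70 in neoplasia. The nearest arrays of the groups, wildtype 1 and neoplasia 1, were close. Hk3 was 1.74 ± 0.55 (SE) higher, or 3.35-fold (limma adjusted p = 0.0449), beside the rise of all 7 macrophage markers and of 3 of 5 tested neutrophil markers. Those neutrophil markers had summed signals of 0.762 to 1.77 in wildtype and 3.46 to 29.3 in neoplasia, and their part was not tested. The Hk3 call ended without any one of wildtype 1 to 3 or neoplasia 2 to 4 (adjusted p up to 0.136). Hk1, the widely expressed form, read 2.95 to 3.22 in wildtype and 3.45 to 4.55 in neoplasia without overlap. Its difference of 0.91 ± 0.31 (SE) just missed the threshold (adjusted p = 0.0559), while a second probe, at 0.88, passed it among probes (adjusted p = 0.0451). Hk2, the insulin-regulated form often high in tumours, read -0.62, -0.25 and 0.25 in wildtype and 3.26, 0.88, -0.12, 1.81 and 2.31 in neoplasia. Neoplasia 3 lay within the wildtype range, and the difference of 1.83 ± 0.69 (SE) was not called (adjusted p = 0.0759).

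Gpi1, the isomerase that makes fructose 6-phosphate, read 6.30, 6.19 and 6.51 in wildtype and 7.92, 7.15, 7.12, 7.74 and 7.87 in neoplasia. It was 1.22 ± 0.26 (SE) higher, or 2.34-fold (limma adjusted p = 0.0112), and its 3 probes gave 1.18 to 1.22. Aldoa, the aldolase of muscle and most other tissues, read 7.70, 7.95 and 8.13 in wildtype and 9.54, 8.85, 8.46, 9.40 and 9.21 in neoplasia. Its difference was 1.16 ± 0.28 (SE), or 2.24-fold (limma adjusted p = 0.0185), with no overlap. Aldoc, the brain-type aldolase, varied more within the wildtype group, from 2.79 to 4.76, than between the groups and differed by 0.22 ± 0.52 (SE, adjusted p = 0.770). Tpi1, which interconverts the triose phosphates, read 4.75, 4.84 and 4.98 in wildtype and 8.11, 5.93, 5.56, 7.63 and 7.01 in neoplasia. Neoplasia 1 and 4 were the brightest for Tpi1, and neoplasia 2 and 3 the nearest to wildtype. Its difference was 1.99 ± 0.57 (SE), or 3.98-fold (limma adjusted p = 0.0330). Quantile normalization took Gpi1 to 0.44 (limma adjusted p = 0.165), Aldoa to 0.32 (0.339) and Tpi1 to 1.28 (0.0751), and spike-in scaling took them to 0.63, 0.57 and 1.40, none of them called. Without wildtype 1 or 2, neither Gpi1 (adjusted p up to 0.0541) nor Aldoa (up to 0.0874) was called, and Tpi1 was not called without any one of wildtype 1 to 3 or neoplasia 4 (up to 0.110).

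The steps from triose phosphate to pyruvate had 3 members higher and 4 not called, of 7 tested. Pkm, the pyruvate kinase gene of muscle and proliferating cells, gave the smallest adjusted p of all members. It read 4.36, 4.32 and 4.69 in wildtype and 8.05, 6.40, 6.56, 7.08 and 6.91 in neoplasia. The lowest neoplasia array was far above the highest wildtype array. Pkm was 2.54 ± 0.37 (SE) higher, or 5.83-fold (limma adjusted p = 0.00250), and was called without any single array and in every scaling tried. The array has 1 probe for Pkm, and no value here separates its M1 and M2 splice forms.

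Pgk1, the kinase of the first ATP-yielding step, read 4.38, 4.84 and 4.67 in wildtype and 7.89, 5.80, 5.75, 7.68 and 7.48 in neoplasia. Neoplasia 2 and 3 were again the lowest of their group, and the groups did not overlap. The difference of Pgk1 was 2.29 ± 0.56 (SE), or 4.88-fold (limma adjusted p = 0.0200). Gapdh, the dehydrogenase often used to normalise other measurements, read 7.25, 7.37 and 7.53 in wildtype and 9.53, 8.23, 8.22, 9.12 and 8.72 in neoplasia. It was 1.38 ± 0.33 (SE) higher, or 2.60-fold (limma adjusted p = 0.0184). All 7 Gapdh probes gave a positive difference, from 1.38 to 1.73, and 6 of them were called. Neither Pgk1 (adjusted p up to 0.0819) nor Gapdh (up to 0.0791) was called once wildtype 1, 2 or 3 was left out. With spike-in scaling the calls of both were lost, at 1.69 for Pgk1 and 0.78 for Gapdh, and Gapdh was also lost with quantile normalization, at 0.53.

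Pgam1, the phosphoglycerate mutase of most tissues, read 5.75 to 6.29 in wildtype and 5.93 to 7.35 in neoplasia, a difference of 0.95 ± 0.36 (SE, adjusted p = 0.0747). The enolases were not called. Eno1, the form of most tissues, differed by 0.86 ± 0.50 (SE, adjusted p = 0.216), and neoplasia 2 and 3, at 4.90 and 4.88, lay within the wildtype range of 4.80 to 5.11. Eno2, the neuronal form, ranged from -2.68 on neoplasia 3 to 1.85 on neoplasia 5, around wildtype values of -0.86 to 0.07, and differed by -0.62 ± 0.95 (SE, adjusted p = 0.636). Eno3, the muscle form, differed by 0.29 ± 0.47 (SE, adjusted p = 0.654), with neoplasia 1 at 3.35 and the other 4 neoplasia arrays at 1.24 to 2.04.

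**Figure D2:**
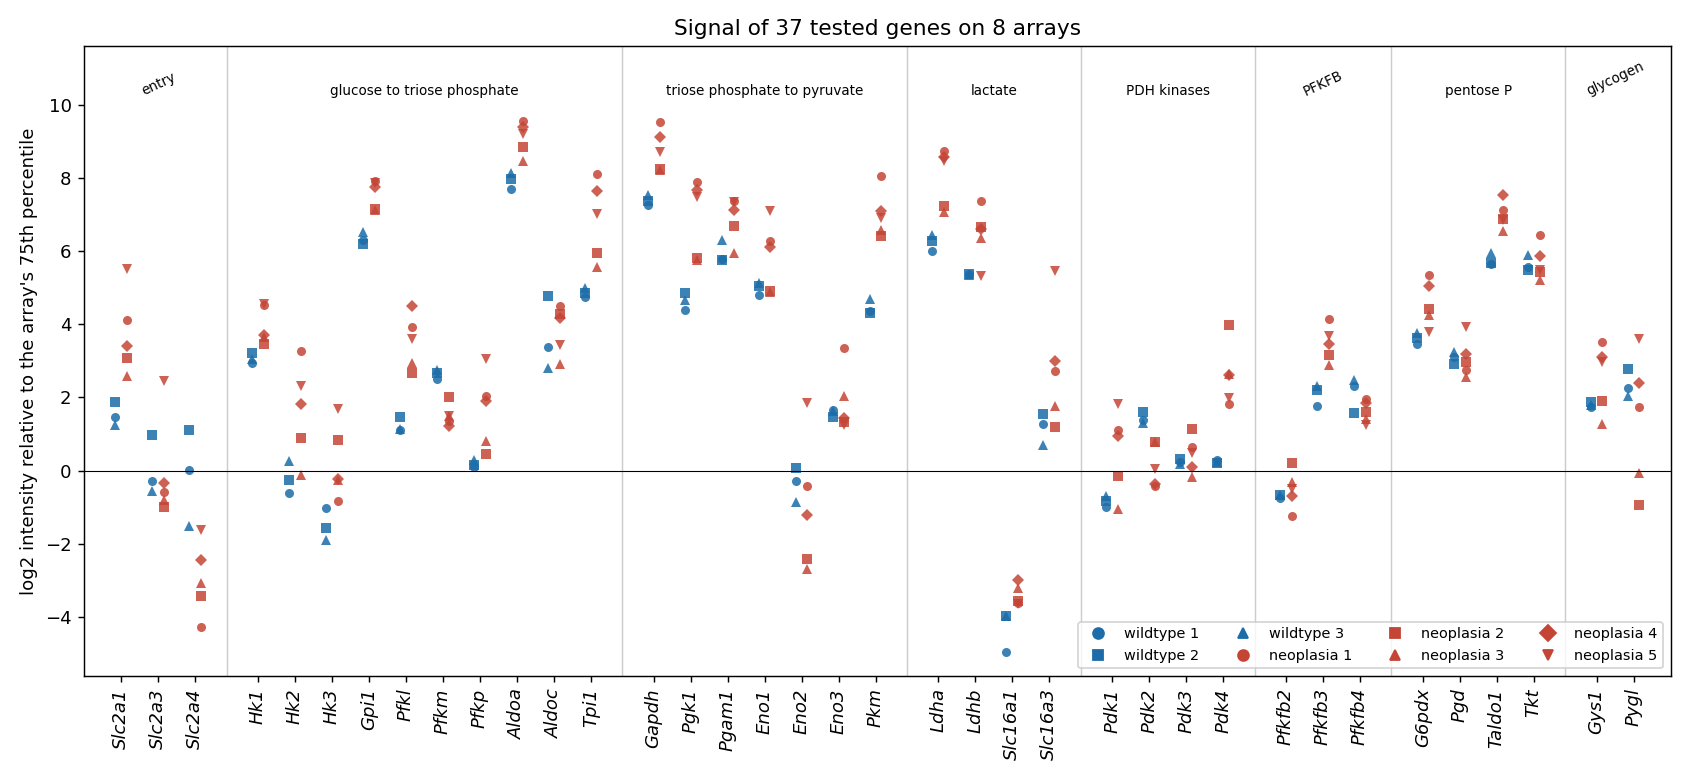
Log2 intensity of the 37 tested genes relative to each array's 75th percentile, grouped by role, with wildtype arrays in blue, neoplasia arrays in red and a symbol for each replicate number. For Pkm the wildtype arrays lie at 4.32 to 4.69 and the neoplasia arrays at 6.40 to 8.05; levels are not comparable between genes.

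Lactate production was represented by Ldha and Ldhb and lactate export by Slc16a1 and Slc16a3, and 1 of these 4 was called higher. Ldha, the subunit that favours reduction of pyruvate to lactate, read 6.0, 6.28 and 6.43 in wildtype and 8.73, 7.24, 7.06, 8.57 and 8.47 in neoplasia. The groups were apart on every array. Ldha was 1.78 ± 0.44 (SE) higher, or 3.44-fold (limma adjusted p = 0.0201), and its 3 probes gave 1.78 to 1.79. It was not called with quantile normalization, at 0.99 (limma adjusted p = 0.0759), with spike-in scaling, at 1.19 (adjusted p = 0.230), or without any one of wildtype 1, 2 or 3 (adjusted p up to 0.0851). Ldhb, the heart-type subunit that favours lactate oxidation, read 5.36, 5.37 and 5.34 in wildtype and 7.36, 6.66, 6.35, 6.61 and 5.32 in neoplasia. Neoplasia 5 sat at the wildtype level for Ldhb, and the difference of 1.11 ± 0.40 (SE) was not called with it (adjusted p = 0.0681) and was called at 1.39 without it. Slc16a3 encodes MCT4, the exporter of strongly glycolytic cells. It read 1.26, 1.55 and 0.71 in wildtype and 2.72, 1.19, 1.77, 2.99 and 5.47 in neoplasia, a difference of 1.66 ± 0.86 (SE, adjusted p = 0.168). Slc16a1 encodes MCT1 and was dim on all arrays, at -4.95 to -3.96 in wildtype and -3.65 to -2.99 in neoplasia. Its groups did not overlap, and its difference of 0.88 ± 0.29 (SE) was not called (adjusted p = 0.0511). Slc16a1 was called higher in 5 of 21 alternatives, among them quantile normalization, at 1.16 (limma adjusted p = 0.0214).

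The kinases that switch off pyruvate dehydrogenase changed in opposite directions. Pdk4, the form induced by fasting, glucocorticoids and fatty acids in many tissues, read 0.29, 0.20 and 0.23 in wildtype and 1.81, 3.99, 2.65, 2.61 and 1.99 in neoplasia. The wildtype arrays were nearly alike, and neoplasia 2 was the highest. Pdk4 was 2.37 ± 0.46 (SE) higher, or 5.15-fold (limma adjusted p = 0.00827), and was called without any single array. Pdk2, the widely expressed form, read 1.37, 1.61 and 1.29 in wildtype and -0.43, 0.78, 0.78, -0.36 and 0.05 in neoplasia. All neoplasia arrays were below wildtype, with neoplasia 2 and 3 nearest to it. Pdk2 fell by 1.26 ± 0.34 (SE), 2.40-fold lower (limma adjusted p = 0.0274), and was not called without any one of wildtype 1 to 3 or neoplasia 4 (adjusted p up to 0.0999). Pdk1, a known target of hypoxia-inducible factor, read -0.99 to -0.70 in wildtype and 1.12, -0.15, -1.04, 0.96 and 1.81 in neoplasia. Neoplasia 3 lay below the wildtype arrays for Pdk1, and the difference of 1.39 ± 0.59 (SE) was not called (adjusted p = 0.107). Pdk3 differed by 0.19 ± 0.29 (SE, adjusted p = 0.635).

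The PFKFB enzymes make and break fructose 2,6-bisphosphate, the strongest allosteric activator of phosphofructokinase. Pfkfb3, the form with the highest kinase activity relative to phosphatase activity, read 1.77, 2.20 and 2.32 in wildtype and 4.13, 3.15, 2.90, 3.46 and 3.67 in neoplasia. It was higher on every neoplasia array, by 1.37 ± 0.30 (SE) or 2.58-fold (limma adjusted p = 0.0139), and a second probe gave 1.88. Its call ended without wildtype 1 (adjusted p = 0.0712) and with spike-in scaling, at 0.77 (adjusted p = 0.441). Pfkfb2, the heart form, differed by 0.18 ± 0.31 (SE, adjusted p = 0.666). Pfkfb4 read 1.58 to 2.49 in wildtype and 1.24 to 1.94 in neoplasia, a difference of -0.51 ± 0.27 (SE, adjusted p = 0.176), and its other probe did not pass the filter on dim probes. Pfkfb4 was called lower with quantile normalization, at -0.77 (limma adjusted p = 0.0425), and in the authors' values, at -0.98 (limma adjusted p = 0.0195).

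The pentose phosphate pathway had 1 member higher and 3 not called, of 4. Taldo1, transaldolase of the non-oxidative branch, read 5.65, 5.68 and 5.94 in wildtype and 7.11, 6.88, 6.56, 7.54 and 6.83 in neoplasia. Its groups did not overlap, with neoplasia 4 highest and neoplasia 3 lowest. The difference was 1.23 ± 0.25 (SE), or 2.34-fold (limma adjusted p = 0.00941), and the call ended without wildtype 1 (adjusted p = 0.0511). With quantile normalization Taldo1 was at 0.44 (limma adjusted p = 0.114) and with spike-in scaling at 0.63 (adjusted p = 0.515), and neither was called. Tkt, transketolase of the same branch, read 5.49 to 5.90 in wildtype and 5.21 to 6.42 in neoplasia and differed by 0.03 ± 0.29 (SE, adjusted p = 0.947). With quantile normalization Tkt turned to -0.70 and was called lower (adjusted p = 0.0415). G6pdx, the first and rate-limiting enzyme of the oxidative branch, read 3.45 to 3.77 in wildtype and 5.35, 4.42, 4.26, 5.05 and 3.78 in neoplasia. Neoplasia 5 was just above the highest wildtype array, and the difference of 0.95 ± 0.36 (SE) was not called (adjusted p = 0.0730). Pgd, the later NADPH-forming enzyme of that branch, differed by -0.01 ± 0.32 (SE, adjusted p = 0.975), with a 95% interval of -0.74 to 0.71.

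Neither glycogen member was called by limma, and none passed an unadjusted p of 0.05. Gys1, glycogen synthase of muscle and most other tissues, read 1.75 to 1.87 in wildtype and 3.51, 1.92, 1.27, 3.12 and 2.98 in neoplasia, a difference of 0.75 ± 0.49 (SE, adjusted p = 0.266). Pygl, the liver-type phosphorylase, read 2.05 to 2.76 in wildtype and 1.75, -0.94, -0.07, 2.39 and 3.59 in neoplasia. It was the lowest on neoplasia 2 and 3, and differed by -1.01 ± 0.95 (SE, adjusted p = 0.432).

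The neoplasia arrays did not show the differences to the same extent. Relative to the wildtype mean, the median tested member was shifted by 1.55, 0.73, 0.53, 1.30 and 1.41 on neoplasia 1 to 5, while the median of all features was shifted by 0.17, 0.11, 0.16, 0.17 and 0.04. For the 13 members called higher the medians were 2.15, 1.13, 0.83, 1.89 and 2.16. Neoplasia 2 and 3 both lay below neoplasia 1, 4 and 5 for 22 of 37 members (59.5%), among them Hk1, Hk2, Gpi1, Pfkl, Tpi1, Gapdh, Pgk1, Pkm, Ldha and Pfkfb3, and for 12.0% of all features. Of the 13 members called higher, 10 had this order, and Hk3, Pdk4 and Taldo1 did not. The order was seen in the data and then counted, so it is a description. Neoplasia 3 was the lowest of its group for 19 of 37 members, against 14.4% of all features. The median SD among neoplasia arrays was 0.74 for members and 0.47 for all features, while among wildtype arrays it was 0.20 for both.

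Some measures of the arrays separated neoplasia 2 and 3 from the other 3 as well. Neoplasia 2 and 3 had 31900 and 32937 probes well above background, against 29351 to 29829 on neoplasia 1, 4 and 5. Their 75th percentile, on which the values are scaled, was 429 and 363 units, against 309 to 359. The lowest signal well above background was -5.10 and -5.21 on the log2 scale of the values, against -4.78 to -4.36. Other measures did not follow this order. The summed macrophage signal was 122, 179, 96.0, 90.9 and 108 on neoplasia 1 to 5, and the summed erythrocyte signal was 492, 402, 565, 1376 and 1923. Spike-in signal was the lowest on neoplasia 1, at 8.89 on the log2 scale against 10.18 to 10.76 on neoplasia 2 to 5. The part of these measures in the order of the members was not tested.

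**Figure D3:**
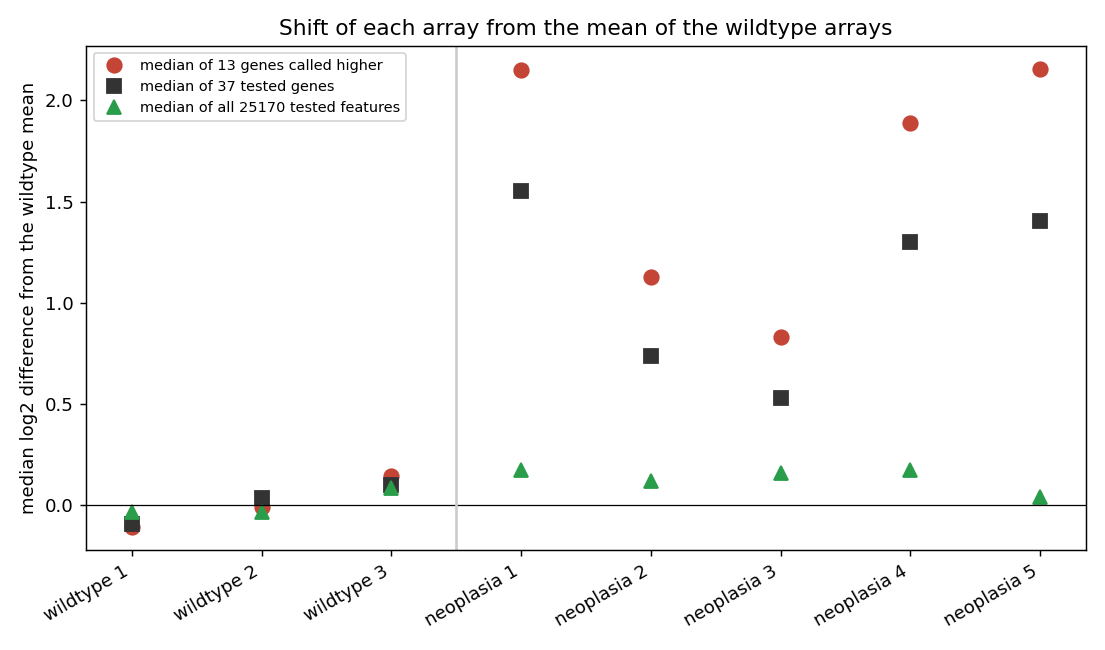
Median log2 difference of each array from the mean of the wildtype arrays, for the 13 members called higher (circles), the 37 tested members (squares) and all 25170 tested features (triangles). Neoplasia 2 and 3, at 0.73 and 0.53 for the members, lie below neoplasia 1, 4 and 5, at 1.55, 1.30 and 1.41, and the medians of all features lie between -0.04 and 0.17.

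Related genes, mostly forms of one enzyme or transporter, were then compared within each array, as the log2 ratio of one gene to another. Scaling on one number per array, such as spike-in scaling, cannot alter this ratio. The ratios include Gys1 to Pygl, a glycogen synthase against a phosphorylase. Of 17 ratios, 0 passed after adjustment and 7 had an unadjusted p under 0.05 (exact two-sided permutation test over all 56 splits of 8 arrays, smallest possible p = 0.0179). At that smallest p, the adjusted value over 17 ratios was 0.0759, so 4 ratios reached the limit of the design. The pairs were chosen with the differences of the single genes known. The ratio of Slc2a1 to Slc2a4 was 1.45, 0.75 and 2.76 in wildtype and 8.39, 6.50, 5.65, 5.84 and 7.13 in neoplasia, a change of 5.04. Slc2a1 to Slc2a3 changed by 2.32. The ratio of Pfkl to Pfkm was -1.41, -1.22 and -1.62 in wildtype and 2.58, 0.67, 1.44, 3.27 and 2.11 in neoplasia, a change of 3.43. Pdk4 to Pdk2 read -1.08, -1.41 and -1.06 in wildtype and 2.24, 3.20, 1.87, 2.97 and 1.94 in neoplasia, a change of 3.63. These 4 ratios did not overlap between the groups.

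Pfkp to Pfkm, Pdk1 to Pdk2 and Pdk3 to Pdk2 also did not overlap, with changes of 2.59, 2.65 and 1.46 (exact permutation p = 0.0357, adjusted p = 0.0867 each). Ldha to Ldhb read 0.64 to 1.09 in wildtype and 1.37, 0.58, 0.71, 1.96 and 3.14 in neoplasia. Its change of 0.68 was within the spread of the neoplasia arrays (exact permutation p = 0.339, adjusted p = 0.412). Eno1 to Eno2 changed by 1.49 and Pfkfb3 to Pfkfb2 by 1.18 (exact permutation p = 0.0536, adjusted p = 0.101 each). Slc16a3 to Slc16a1 changed by 0.77 and Hk2 to Hk1 by 0.92, with overlap in both.

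**Figure D4:**
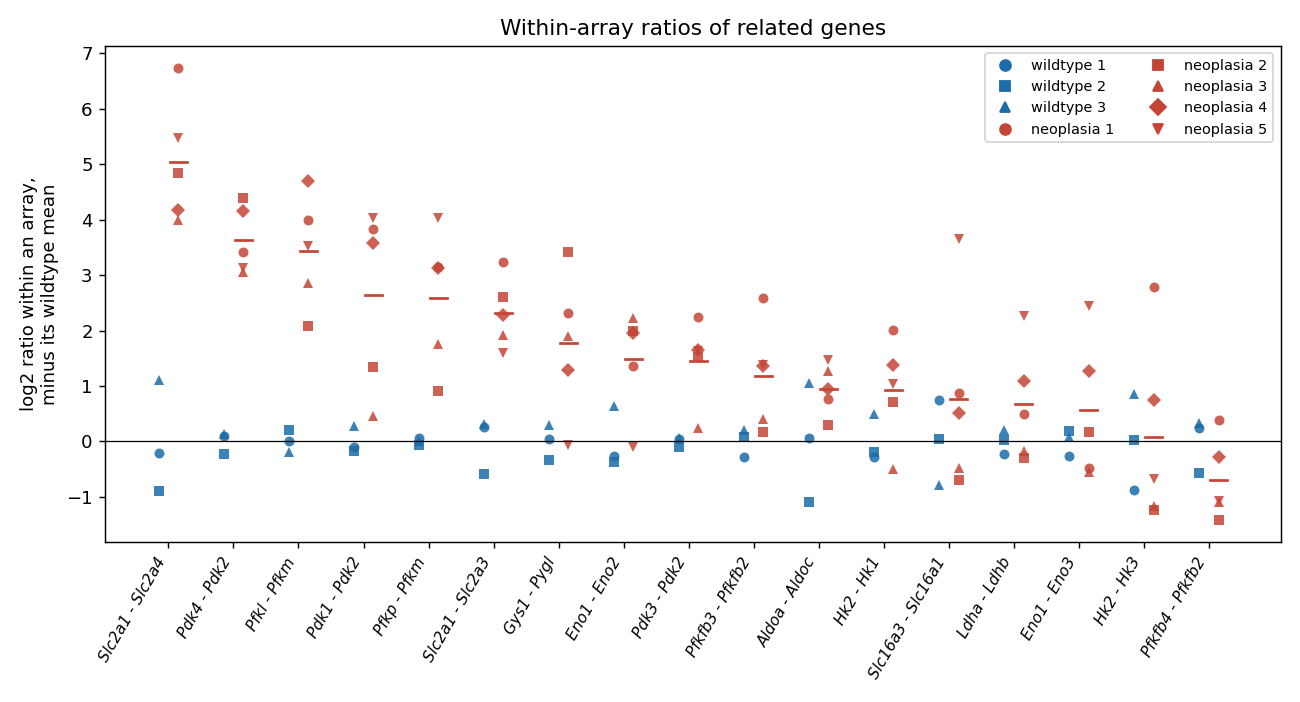
Log2 ratio of one gene to another on each array, minus its wildtype mean, for the 17 ratios of related genes, with wildtype arrays in blue, neoplasia arrays in red, a symbol for each replicate number and a red line at the neoplasia mean. The changes run from 5.04 for Slc2a1 to Slc2a4 to -0.70 for Pfkfb4 to Pfkfb2, and 7 of the 17 ratios do not overlap between the groups.

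Around these pathways, of 71 tested genes in the wider list, 12 were higher (16.9%) and 6 lower (8.45%), close to or below the shares of all features, and their median difference was 0.35. The largest differences were in genes of monocarboxylate transport and lactate use. Slc16a6, a transporter of the monocarboxylate family, read 0.32, 0.66 and 0.72 in wildtype and 6.67, 7.19, 6.95, 7.25 and 5.20 in neoplasia. It was 6.08 ± 0.46 (SE) higher, or 67.8-fold (limma adjusted p = 9.24e-05). Ldhd, the mitochondrial dehydrogenase of D-lactate, read 0.86, 1.26 and 0.98 in wildtype and 5.38, 6.62, 6.10, 7.12 and 4.76 in neoplasia. It was 4.96 ± 0.50 (SE) higher, or 31.2-fold (limma adjusted p = 0.000469). Both were the lowest on neoplasia 5, where Slc2a1 and Slc16a3 were the highest. Bsg, the chaperone that brings MCT1 and MCT4 to the cell surface, was 1.38 ± 0.31 (SE) higher (limma adjusted p = 0.0142). Emb, which escorts other monocarboxylate transporters, ranged from -1.87 to 2.16 in neoplasia and was not called (difference -2.32, adjusted p = 0.110).

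In the wider list of glycolytic genes, Pgp, a phosphatase that clears toxic side products of glycolysis, was 1.20 ± 0.31 (SE) higher and Gpd2, of the glycerol phosphate shuttle, 0.94 ± 0.25 (SE) higher. Ldhc, the germ-cell form of lactate dehydrogenase, was well above background on every wildtype array, and on 0 of 5 arrays of neoplasia. Its signal was at least 1.96-fold lower in neoplasia than in wildtype, measured against the mean of the lowest signals well above background (limma adjusted p = 0.00124). The fall of Ldhc stands beside that of all 7 oocyte markers, whose part was not tested. Of the mitochondrial pyruvate genes, Pdha1, a subunit of pyruvate dehydrogenase, was 0.64 ± 0.19 (SE) higher and the other 9 were not called, the carriers Mpc1 and Mpc2 among them at 0.62 and 0.32. H6pd, which opens the pentose phosphate pathway within the endoplasmic reticulum, read 2.13, 2.41 and 1.95 in wildtype and 5.04, 4.01, 4.28, 4.05 and 4.18 in neoplasia. Its groups were apart by more than the spread of either, and its difference was 2.14 ± 0.27 (SE), or 4.42-fold (limma adjusted p = 0.00141). The other 6 pentose phosphate genes of the wider list, Pgls and Rpia among them, were not called. Of 6 tested genes of glucose entry, limma called 0, with 1 higher and 1 lower at an unadjusted p under 0.05.

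Of 14 tested glycogen genes of the wider list, 3 were higher and 3 lower (21.4% each, against 16.8% and 13.5% of all features), and 8 were not called. Gbe1, the branching enzyme, was 1.42 ± 0.37 (SE) higher and Ugp2, which makes UDP-glucose, 1.1 ± 0.17 (SE) higher. Pygb, the brain-type phosphorylase, read 2.12, 2.38 and 1.86 in wildtype and -0.09, 0.35, 0.01, 0.33 and 1.27 in neoplasia, and fell by 1.75 ± 0.32 (SE, limma adjusted p = 0.00702). Phkb, a subunit of phosphorylase kinase, fell by 0.96 ± 0.20 (SE). The other called genes had smaller differences, Gyg at 0.62 and Pygm at -0.75. Among regulators, Epas1, which encodes HIF-2α, was 1.37 ± 0.31 (SE) higher (limma adjusted p = 0.0150) and read 4.58 to 4.80 in wildtype and 5.59 to 6.71 in neoplasia. Hif1a differed by 0.76 ± 0.39 (SE, adjusted p = 0.162) and Myc by 0.43 ± 0.23 (SE, adjusted p = 0.181), and neither was called. Mycn fell by 2.53 ± 0.48 (SE, limma adjusted p = 0.00782), and Prkaa1, a catalytic subunit of the energy sensor AMPK, was 0.61 ± 0.19 (SE) higher. Of gluconeogenic genes, Pck2, the mitochondrial form of PEP carboxykinase, fell by 0.67 ± 0.22 (SE, limma adjusted p = 0.0478) and the other 5 tested were not called.

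**Figure D5:**
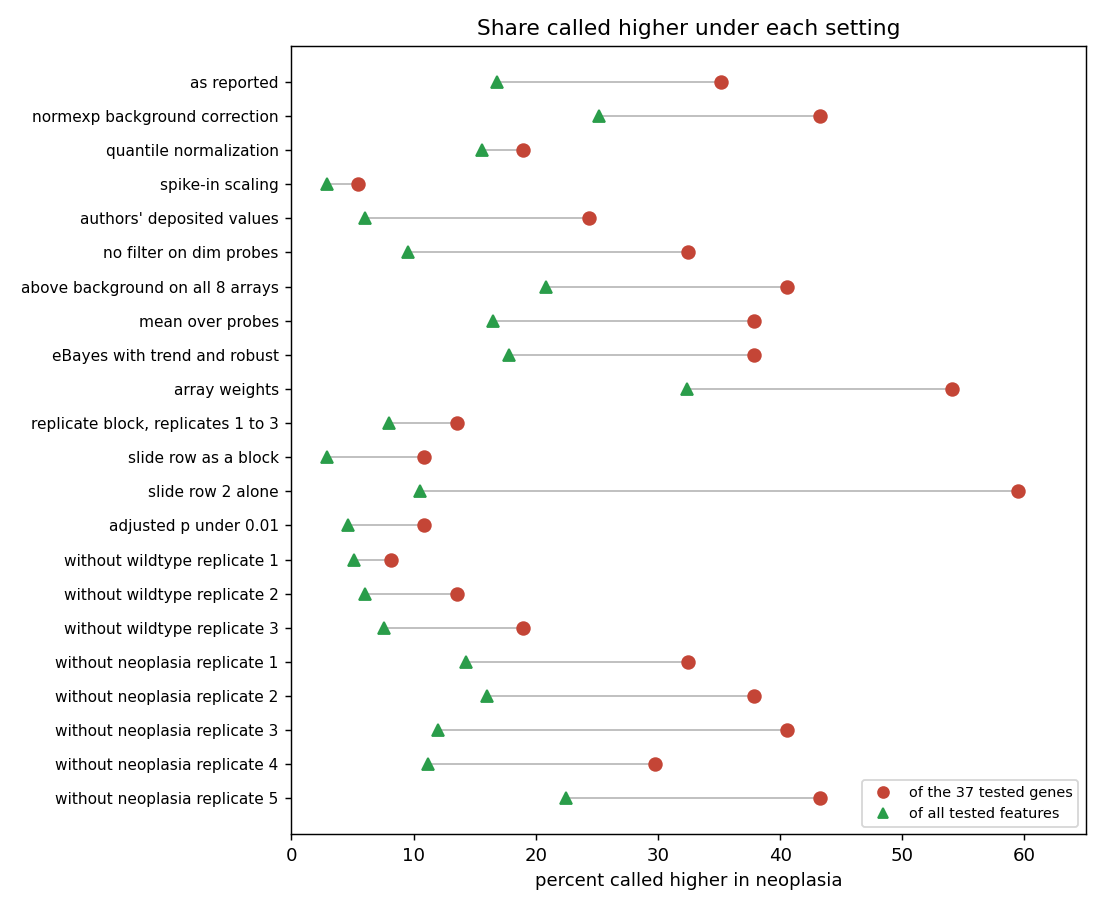
Percent of the 37 tested members (circles) and of all tested features (triangles) called higher in the neoplasia, for the values as reported and for each alternative setting. The member share was 35.1% as reported. It ran from 5.41% with spike-in scaling to 54.1% with array weights, leaving aside slide row 2 alone, which holds 1 neoplasia array. It lay above the share of all features in each setting shown. The gap was smallest with spike-in scaling (5.41% against 2.93%), without wildtype 1 (8.11% against 5.15%) and with quantile normalization (18.9% against 15.6%).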

How the data were processed

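The deposited scanner files hold linear spot intensity, already background-subtracted but not scaled between arrays; the file headers name Agilent Feature Extraction 11.0.1.1. The authors' deposited value table holds log2 values. Within 0.001, all 37932 rows equal the log2 mean intensity over the spots of one accession. Partek appears in the submitters' processing notes with no role given. For this work, control and outlier spots were dropped, spots of a probe were averaged, and the log2 intensity was taken relative to each array's 75th percentile (309 to 515 units). A probe was kept if 3 or more arrays showed it well above background (29351 to 34198 of 55681 probes passed per array, and none was saturated), and the probe with the highest mean stood for a gene. The number of arrays limits the precision. Accessions were named through the RefSeq table of GRCm38.p6 (26582 of 55681 probes, 47.7%).

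Neoplasia was tested against wildtype in R 4.3.3 by lmFit and eBayes of limma 3.58.1, without covariates, adjusted over 25170 features at 0.05. Ratios of related genes were tested with exact permutation tests. The fit was also run on simulated data with 200 changed features among 25170 and an equal spread in both groups. These data differ in both, with an unequal spread and 7635 features called. The adjustment is stricter when fewer features change. The simulation recovered 6.2% of log2 changes of 1 and 50.8% of those of 2, which are not rates for these data. An uncalled gene may still differ. The members, gene lists and pairs were chosen with earlier results of these data known. Arrays were named by the sample titles; another label field calls each sample replicate 1. Full values are given for all called members. Called genes of the wider list are given with their difference, or a bound for Ldhc, and some of them with values on each array. The wider list held 78 genes, of which 77 were on the array; Slc2a2, Slc2a12, Slc5a1, Hkdc1, Pgk2, Pklr and Gys2 were not tested. Marker lists of theca cells (4 of 5 tested lower), neurons (2 higher and 3 lower of 6) and hepatocytes (1 and 1 of 5) were also run. Alternatives were normexp with an offset of 50, quantile and spike-in scaling, the authors' values, other filters on dim probes, the mean over probes, 2 other variance models, the replicate or slide row as a block, row 2 alone, a threshold of 0.01 and leaving out each array. Promoters are the 250 bases before each RefSeq start, and Slc2a3 and Slc2a4 have none in the table.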

Additional observations from a re-analysis of the deposited data

Results flagged for a closer look

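Slc2a3, the gene of the glucose transporter GLUT3, read 2.45 on neoplasia 5 and -0.99 to -0.34 on the other 4 neoplasia arrays, on the log2 scale relative to the 75th percentile. The gap between neoplasia 5 and the next array was 0.812 of the whole range of the group, above the limit of 0.71 that Dixon's test sets for 5 samples. Such gaps are passed by chance in about 1 group in 20. They were passed by 1 of 37 tested members (2.70%) and by 6.43% of all features. Slc2a3 was not called between the groups with neoplasia 5 or without it. The same array was also the highest for Slc2a1, Slc2a4, Eno2, Slc16a3 and Pdk1, and was within or near the wildtype range for Ldhb and G6pdx.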

How the results depend on the processing

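No called member changed direction in the 21 alternatives run for single members, which kept 241 of 336 calls and lost 95. Values of uncalled members gained a call in the same direction in 36 of 441 cases. Pkm, Pdk4, Pfkl and Pfkm were called without each array in turn. A pair of uncalled members turned and were then called, Tkt with quantile normalization (-0.70) and Eno2 within slide row 2 (2.20). The 13 members called higher became 7 with quantile normalization, 2 with spike-in scaling (Pkm and Pdk4), 20 with array weights, 4 with the slide row as a block, 22 in row 2 alone, 4 at an adjusted p under 0.01, and 3 to 16 without one array. The 3 called lower became 5, 3, 3, 0 (2 at an unadjusted p under 0.05), 2 and 1 in the same settings, and 1 to 3 without one array. Among the wider pathway genes, the 12 higher became 2 with spike-in scaling (2.93%), 5 in the authors' values (6.05%) and 27 with array weights (32.4%). They became 4 with the row as a block (2.92%), 4 at 0.01 (4.66%), and 4 to 16 without one array (5.15% to 22.5%). The 6 lower became 11 in the authors' values (24.4%) and 3 without a filter on dim probes (8.57%). They became 1 with the row as a block (3.21%), 3 at 0.01 (5.5%), and 3 to 8 without one array (6.09% to 17.1%). The median member difference of 0.95 became 0.44 with quantile normalization, 0.36 with spike-in scaling, 0.48 in the authors' values and 1.41 with the row as a block and in row 2 alone, and 0.87 to 1.13 without one array. Ratios passing the adjusted exact permutation test numbered 0 in each of 13 alternatives, a count that the small number of splits nearly fixes and that shows nothing about stability. No sign was seen that the shared replicate numbers pair the arrays. Deviations of same-numbered arrays correlated at -0.054, -0.031 and -0.0016, and those of differently numbered arrays at -0.13 to 0.09. Such values do not settle whether the arrays were paired. With the replicate number as a block, over replicates 1 to 3, 5 members were higher, 1 lower, 6 wider genes higher and 5 lower. Without the block on the same arrays, an alternative added after seeing the data, these counts were 9, 2, 13 and 6. Of all features, 7.98% were higher and 10.6% lower with the block, against 18.2% and 15.2% without it. Row 2 alone holds 1 neoplasia array, taken to vary as the wildtype arrays do. The cause of these changes was not tested. Of the 38 members, 37 were well above background on all 8 arrays and Pgam2 on 1, and of 71 wider genes tested 63 were on all 8.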

Other observations

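The gluconeogenic genes named here were chosen after their values were seen. The neoplasia arrays spanned 5.54 on the log2 scale for Pck1 and 6.50 for Fbp1, against 0.46 for G6pc3 and 0.75 for Pck2. Pck1, the cytosolic PEP carboxykinase, read 0.32, 1.25 and -5.91 in wildtype and -6.94, -1.40, -5.93, -6.40 and -1.69 in neoplasia (limma adjusted p = 0.259), and was well above background on 2 of 3 and 2 of 5 arrays. Fbp1, the fructose bisphosphatase of liver and kidney, read 0.02, -1.0 and -0.62 in wildtype and -4.22, 0.43, 2.28, -2.71 and -1.27 in neoplasia (limma adjusted p = 0.763). Neither Pck1 nor Fbp1 was called. Gpd1, the cytosolic enzyme of the glycerol phosphate shuttle, read 1.25, 2.04 and -0.83 in wildtype and 2.92, 4.83, 3.40, 3.90 and 1.42 in neoplasia, and just missed the threshold (difference 2.47 ± 0.84 SE, limma adjusted p = 0.0564). Mlxipl, which encodes the glucose-sensing factor ChREBP, read 1.15 to 1.58 in wildtype and 0.38, 4.89, 2.91, 2.86 and 1.21 in neoplasia, highest on neoplasia 2, and was not called (difference 1.09 ± 0.90 SE, limma adjusted p = 0.373). The summed hepatocyte markers were also the highest on neoplasia 2, at 241 against 1.72 to 58.8 on the other neoplasia arrays and 1.69 to 5.54 in wildtype, and their part in the Mlxipl values was not tested.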
